A study of Mus musculus with 6 samples.

Results

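The genes described are 6 connexin genes, Gja1, Gja4, Gja5, Gjb2, Gjb6 and Gjc1, which were taken by symbol from the 31053 genes counted in every library. Connexins are membrane proteins that assemble into hexameric channels, and channels of neighboring cells dock to form gap junctions, through which ions and small molecules pass. Meningeal fibroblasts are known for Gja1, Gjb2 and Gjb6, astrocytes for Gja1 and Gjb6, arterial endothelium for Gja4 and Gja5, and mural cells of blood vessels for Gja4 and Gjc1. Cells of C57BL6 adult mice of either sex came from 2 preparations: the cortical surface with its leptomeninges (4 libraries), and the tissue lining the inside of the skull, called bone-associated (2 libraries). Each library pooled several mice and is 1 replicate, and viable nucleated cells were sorted before single-cell RNA sequencing. Tissue and dissection differ together between the preparations and cannot be told apart.

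Levels are given in counts per 1000000 (CPM): the unique molecular identifiers (UMIs, which mark single captured RNA molecules) of a gene per 1000000 UMIs of a cell class in a library, and only classes with at least 10 cells in a library are given a level. Classes were formed without any connexin gene and named "-like" from marker genes. In both preparations, mesenchymal-like cells had UMIs for all 8 of 8 mesenchymal markers, which summed to between 7157 and 10858 CPM on the cortical surface and between 19704 and 24699 in the bone-associated libraries. Libraries held 951 to 5602 barcodes and 8408685 to 56169736 UMIs, and 739 to 2452 cells of each were kept. Hemoglobin genes took 84.6% and 71.9% of all UMIs in cortical surface libraries 3 and 4, against at most 0.52% in the other libraries, and still took 17.9% and 12.1% in the kept cells. Of the kept barcodes, 1 to 5 in each library also occurred in another. T or NK-like cells, which should hold little connexin RNA, gave the background from free RNA. With cells pooled over the libraries of a preparation, at most 0.556% of them had a UMI of any single one of the 6 genes. Their median depth was 5948.5 UMIs on the cortical surface and 6121.5 in the bone-associated libraries. This pooled share does not describe each library: cortical surface library 2 had 31 such cells, with 2 UMIs of Gjb6 (6.13 CPM).

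Gjb2 (ENSMUSG00000046352, chr14:57098600-57104702, mm10) and Gjb6 (ENSMUSG00000040055, chr14:57123303-57133611) lie side by side on the minus strand, 18601 bases apart. Gja1 (ENSMUSG00000050953) is at chr10:56377330-56402513 on the plus strand. Gja4 (ENSMUSG00000050234) is at chr4:127311421-127314039 and Gjc1 (ENSMUSG00000034520) at chr11:102799579-102819700, both on the minus strand. Gja5 (ENSMUSG00000057123) is at chr3:96904693-97077416 on the plus strand. The Gja5 promoter printed below precedes a RefSeq start that lies inside this interval. RefSeq (build GRCm38.p6) gave a promoter for 5 of the 6 genes, all except Gjc1. The 250 bases before the start are printed for the neighboring pair Gjb2 and Gjb6 and for the pair Gja4 and Gja5. The former were both high in cortical surface mesenchymal-like cells and the latter in arterial-like cells. Gja4, unlike Gja5, was also high in the mural classes. The bases are written 5′ to 3′ on the strand of the gene, and capitals mark a GC box, searched as GGGCGG on both strands.
Gjb2 promoter, chr14:57104703-57104952, minus strand: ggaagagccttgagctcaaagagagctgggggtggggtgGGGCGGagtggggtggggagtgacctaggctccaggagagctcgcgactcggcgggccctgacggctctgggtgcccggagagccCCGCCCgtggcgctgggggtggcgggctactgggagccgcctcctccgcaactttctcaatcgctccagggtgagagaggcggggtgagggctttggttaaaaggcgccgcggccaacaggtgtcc
Gjb6 promoter, chr14:57133612-57133861, minus strand: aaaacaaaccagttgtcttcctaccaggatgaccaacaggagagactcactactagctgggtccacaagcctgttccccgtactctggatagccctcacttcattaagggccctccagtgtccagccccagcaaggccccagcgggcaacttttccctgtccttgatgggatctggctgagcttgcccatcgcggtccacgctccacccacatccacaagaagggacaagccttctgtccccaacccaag
Gja4 promoter, chr4:127314040-127314289, minus strand: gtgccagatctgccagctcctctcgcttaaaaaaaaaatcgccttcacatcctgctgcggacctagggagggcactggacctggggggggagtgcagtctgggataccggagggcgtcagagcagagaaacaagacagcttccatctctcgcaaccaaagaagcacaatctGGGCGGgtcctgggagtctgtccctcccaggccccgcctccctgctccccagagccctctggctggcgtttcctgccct
Gja5 promoter, chr3:97032152-97032401, plus strand: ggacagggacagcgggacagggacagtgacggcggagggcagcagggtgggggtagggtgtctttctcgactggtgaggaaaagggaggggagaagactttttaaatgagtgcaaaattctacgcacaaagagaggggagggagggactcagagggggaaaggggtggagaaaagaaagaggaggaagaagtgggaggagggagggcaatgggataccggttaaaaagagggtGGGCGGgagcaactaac

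The Gjb2 promoter held 2 GC boxes, those of Gja4 and Gja5 held 1 each, and those of Gjb6 and Gja1 (chr10:56377050-56377299) held 0. A GC box was present in 32.7% of all 32841 RefSeq promoters of this length. The GC content was 69.2% for Gjb2, 61.2% for Gja4, 56.8% for Gjb6, 56.4% for Gja5 and 50% for Gja1, with a median of 52.4% over all promoters. The Gjb2 window had 18 CpG dinucleotides and the Gjb6 window 5, and the median window had 6. No CCAAT box (CCAAT, in 33.9% of all promoters) and no TATA box (TATAAA, in 12.4%), each on both strands, was found in the 5 windows. The neighbors Gjb2 and Gjb6, which were high in the same cells, therefore differed in base composition and in these letters.

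The pair Gjb2 and Gjb6, with Gja1, separated the mesenchymal-like cells of the preparations. All 3 were higher on the cortical surface, by between 6.33-fold (Gja1) and 36.8-fold (Gjb6), while Gjc1 was low in both. On the cortical surface, mesenchymal-like cells were 5.05% of all kept cells and held 90.0% of the Gjb2 UMIs (2933 of 3260), 90.6% of the Gjb6 UMIs (2888 of 3188) and 59.7% of the Gja1 UMIs (1093 of 1830). In the bone-associated libraries they were 8.33% of cells and held 85.5% of Gjb2 (177 of 207), 99.5% of Gjb6 (209 of 210) and 22.3% of Gja1 UMIs (336 of 1505). Gjb2, a connexin of supporting cells of the inner ear, skin and meninges, was at 1296, 1315, 1476 and 1353 CPM in cortical surface libraries 1 to 4 and at 54.0 and 39.3 in bone-associated libraries 1 and 2. The groups did not overlap, and the 4 cortical surface libraries lay close together. Gjb6, which often forms mixed channels with Gjb2, was at 1580, 1207, 1399 and 907 CPM on the cortical surface. Its bone-associated values were 6.97 and 55.2, so these 2 libraries differed from each other, and library 1 had 34 mesenchymal-like cells against 250 in library 2. Of the 205 Gjb6 UMIs of these cells in library 2, 143 came from 17 cells of a sub-cluster described below. Gja1, the most widespread connexin gene of the body, was at 497, 492, 552 and 425 CPM on the cortical surface and at 92.3 and 76.2 in the bone-associated libraries. Here too every cortical surface library was above both bone-associated ones.

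In the edgeR fit over 9536 genes, the log2 difference (cortical surface over bone-associated) was 5.01 ± 0.39 (SE; adjusted p = 3.96e-09) for Gjb2 and 5.20 ± 0.53 (adjusted p = 1.82e-07) for Gjb6. The size for Gjb6 rested on the bone-associated libraries, with 4.6 without library 1 and 7.70 without library 2. For Gja1 it was 2.66 ± 0.29 (adjusted p = 3.35e-07, n = 4 against 2 libraries throughout). A gene was called at an adjusted p under 0.05 and an absolute log2 difference of at least 1.3. Thus 3 of the 4 members tested were called, all higher on the cortical surface, where the background over all genes was 14.9% called in either direction, 5.82% higher on the cortical surface and 9.1% higher in the bone-associated libraries. Gjc1 was at 13.2, 19.1, 12.8 and 34.9 CPM on the cortical surface and at 36.6 and 28.0 in the bone-associated libraries, with overlapping groups and a log2 difference of -0.70 ± 0.40 (adjusted p = 0.268). Gja4 (16 and 4 UMIs in the class) and Gja5 (1 and 0) were too low to be tested. With cortical surface libraries 1 and 2 only, which hold little hemoglobin RNA, the log2 differences were 4.86 for Gjb2, 5.17 for Gjb6 and 2.57 for Gja1. Astrocyte markers summed to between 12.8 and 31.3 CPM in the cortical surface mesenchymal-like cells and to between 15.3 and 19.2 in the bone-associated ones. Of the 8 markers, Aqp4, Agt, Mlc1 and Ntsr2 were at 0 in the former and Slc1a2, Mlc1 and Ntsr2 in the latter. The part of astrocyte RNA in the Gja1 and Gjb6 levels was not tested.

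**Figure D1:**
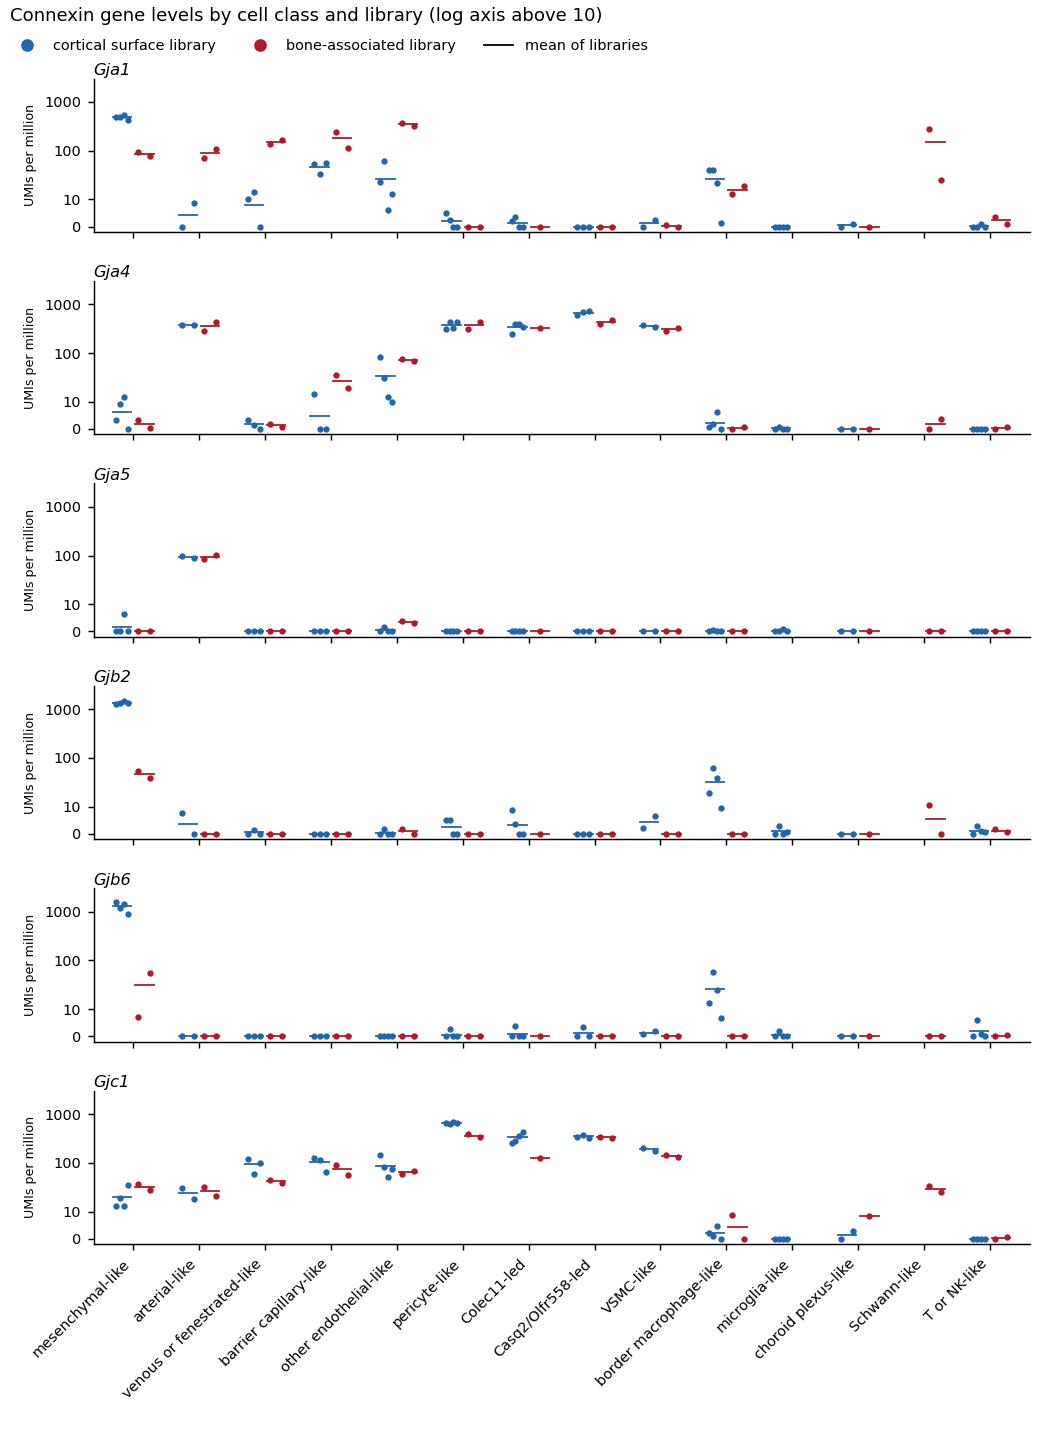
Levels of the 6 genes in CPM (vertical axis, linear to 10 and logarithmic above) by cell class (horizontal axis), 1 point per library with at least 10 cells, cortical surface in blue and bone-associated in red, short lines at the means. Gjb2 and Gjb6 stand near or above 1000 in cortical surface mesenchymal-like cells. Gja5 is highest in arterial-like cells of both preparations, and Gja4 and Gjc1 are seen across the mural classes, all below 1000.

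The share of cells with a UMI followed the same pattern. On the cortical surface, Gjb6 was seen in 97.4% (exact 95% interval 94.7% to 98.9%) and Gjb2 in 94.4% (90.9% to 96.8%) of 266 mesenchymal-like cells. In the 284 bone-associated cells, which were deeper (median 14796.5 against 7589.0 UMIs), the shares were 14.4% for Gjb6 and 11.6% for Gjb2. For Gja1 the shares were 84.2% and 31.0%. These intervals cover counting error only. After each cell was thinned to 1500 UMIs, the shares were 79.4% and 2.49% for Gjb6, 80.2% and 3.91% for Gjb2, and 47.6% and 9.25% for Gja1. The thinned shares kept the order of the levels for all 3 genes. At this depth 34.5% of cortical surface mesenchymal-like cells held UMIs of 3 of the 6 genes, 43.3% of 2 and 4.37% of none, whereas 85.4% of bone-associated mesenchymal-like cells held none.

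Gjb2 and Gjb6 were found together in 247 of the 266 cortical surface cells (92.9%), beside 91.9% given by the product of their shares. With shares of 94.4% and 97.4% these values had to lie close together, so they do not show whether the genes occur independently. In the bone-associated cells both were found in 24 of 284 (8.45%), where the product was 1.68%. These 24 cells, 2 from library 1 and 22 from library 2, held 83.1% of the Gjb2 UMIs and 76.1% of the Gjb6 UMIs of the class, and 13 of them also had a Gja1 UMI. Their median depth was 19396.5 UMIs, against 14376 in the other bone-associated mesenchymal-like cells. After thinning, 1.42% of cells held both, with a product of 0.0975%. The few Gjb2 and Gjb6 UMIs of the bone-associated preparation were therefore held by a small set of cells and were not spread evenly over the class.

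Sub-clusters were formed without the connexin genes. In a bone-associated sub-cluster of 17 cells led by Calca, Pappa and Pappa2, all from library 2, Gjb6 was seen in every cell (395 CPM) and Gjb2 in 76.5% (238). This sub-cluster held 13 of the 24 cells with both genes, 86 of the 177 Gjb2 UMIs and 143 of the 209 Gjb6 UMIs. The sub-cluster led by Ccl11, Vtn and Inmt held 7 of the 24 and 76 Gjb2 UMIs, in 11 of its 89 cells, and those led by Cyp2f2 and by Gpha2 held 3 and 1. With cells pooled over libraries, the sub-clusters other than the Calca-led one had at most 60.8 CPM of Gjb2 and 32.6 of Gjb6, and the Ccl11-led one had 151 CPM of Gjb2 in library 1 (14 cells) and 43.1 in library 2. The Ccl11-led sub-cluster had 122 CPM of Gja1, and those led by Gpha2 and by Nppc had 35.4 and 24.4. All 4 cortical surface sub-clusters had both Gjb2 (843 to 1556) and Gjb6 (669 to 1607), lowest for both in the 33 cells led by Mfap5 and Fn1. Gja1 was lowest, at 314, in the 72 cells led by hemoglobin genes, Mal and Ppp1r14a. It was low there in each library with at least 10 such cells (281, 303 and 318 CPM in libraries 1, 2 and 4), below the 453 to 645 of the sub-clusters led by Ppil3 and by Gm20342.

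**Figure D2:**
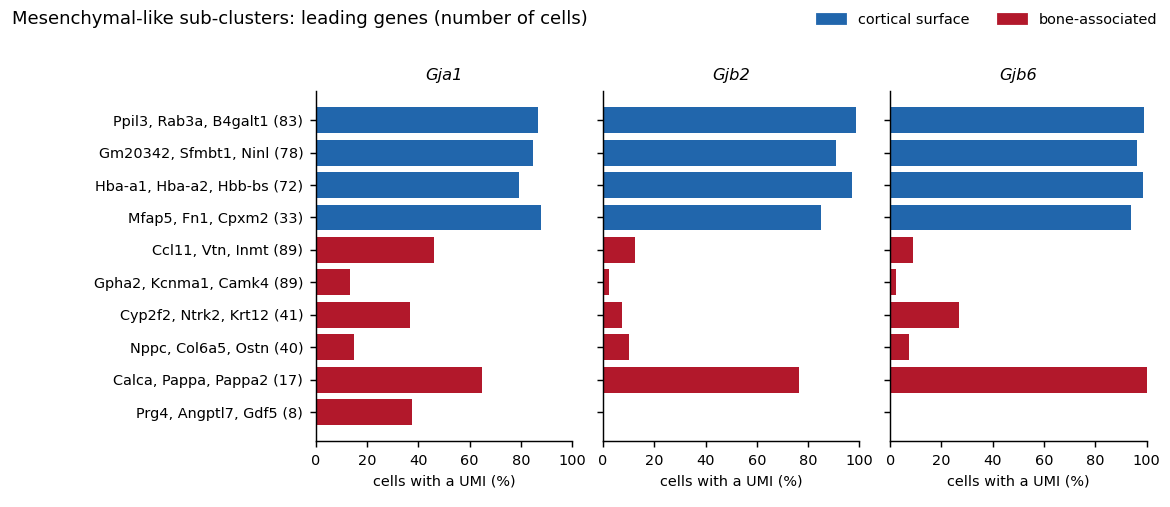
Share of cells with a UMI (horizontal axis, percent) for Gja1, Gjb2 and Gjb6 in each mesenchymal-like sub-cluster (rows, by leading genes and number of cells), cortical surface in blue and bone-associated in red, cells pooled over libraries. Among the red rows, the 17 cells led by Calca have the longest bars for Gjb2 (76.5%) and Gjb6 (100%).

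In endothelial-like cells Gja1 went the other way. It was at 13.8, 34.8, 11.1 and 13.1 CPM in the cortical surface libraries and at 212 and 208 in the bone-associated ones, and the groups did not overlap. The log2 difference was -3.29 ± 0.27 (SE; adjusted p = 2.85e-07), and with cortical surface libraries 1 and 2 only it was -3.05. Gja1 was the 1 member called of 3 tested, against 6.49% of 7691 genes called in either direction, 2.21% higher on the cortical surface and 4.28% higher in the bone-associated libraries. Gja1 UMIs were seen in 9.72% of 545 cortical surface and 50.3% of 595 bone-associated endothelial-like cells, or 2.90% and 22.2% after thinning. Gja1 thus passed the filter of over 10% detection only through the bone-associated cells. Its count beside the background is therefore partly set by the filter. Astrocyte markers in endothelial-like cells summed to between 16.6 and 71.4 CPM on the cortical surface and to between 17.2 and 32.5 in the bone-associated libraries. The part of astrocyte RNA in the Gja1 levels of these cells was not tested. The preparation difference of Gja1 thus had opposite signs in mesenchymal-like and endothelial-like cells, and the difference between them, fitted with the library as a block over genes tested in both classes, was 6.02 ± 0.34 on the log2 scale (adjusted p = 4.54e-11, 6 libraries). Of the 7099 genes in that fit, 13% had an adjusted p under 0.05.

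The Gja1 level differed between endothelial-like subtypes. In the bone-associated libraries it was 374 and 320 CPM in endothelial-like cells outside the named subtypes, whose sub-clusters were led by Cyp26b1 and Cd24a and by Gpihbp1 and Inhbb. Barrier capillary-like cells had 245 and 113, venous or fenestrated-like cells 136 and 168, and arterial-like cells 72.4 and 109. The endothelial-like cells outside the named subtypes did not overlap with any of the other 3, barrier capillary-like and venous or fenestrated-like cells overlapped, and both were above the arterial-like range. On the cortical surface, barrier capillary-like cells had 53.2, 33.0 and 56.0 (libraries 2 to 4), while the other subtypes lay between 0 and 60.6. In all 4 subtypes the bone-associated libraries were above every cortical surface library. The subtypes of the preparations do not match in their leading genes, and the part of this in the Gja1 difference was not tested.

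Gja4 and Gja5, the connexin genes of arterial endothelium, marked the arterial-like cells in both preparations. Gja5 was at 99.0 and 88.8 CPM in arterial-like cells of cortical surface libraries 2 and 4 and at 83.1 and 101 in bone-associated libraries 1 and 2. It had no UMI in venous or fenestrated-like cells (0 of 116 cells on the cortical surface, for a limit of 2.59%, and 0 of 169 bone-associated cells, for a limit of 1.78%) or in barrier capillary-like cells. Gja4 was at 381 and 373 on the cortical surface and at 284 and 427 in the bone-associated libraries, against at most 3.46 in any library of venous or fenestrated-like cells and at most 35.0 in barrier capillary-like cells. Endothelial-like cells outside the named subtypes had 81.4, 30.3, 12.5 and 10.2 on the cortical surface and 76.2 and 68.5 in the bone-associated libraries, below the arterial-like cells in each of the 4 libraries that had both. The ranges of the preparations overlapped for both genes. Arterial-like cells exceeded the other endothelial-like cells of the same 4 libraries by a log2 difference of 6.22 ± 0.37 for Gja5 (SE; adjusted p = 1.69e-05) and 3.96 ± 0.35 for Gja4 (adjusted p = 1.26e-04). Gja1 was lower in arterial-like cells, by -1.47 ± 0.28 (adjusted p = 0.00813), a call lost under 4 alternatives: with thinned cells (-1.13), without bone-associated library 1 (-1.32, adjusted p = 0.136), without the library block (-1.12) and in the cortical surface libraries alone (-2.69, adjusted p = 0.122). Over all 15 alternatives the highest adjusted p for Gja1 was 0.64. Gjc1 had a log2 difference of -1.23 ± 0.25 (adjusted p = 0.0113), below the size needed for a call. The called members were 3 of 4 tested, where 6.82% of 7711 genes were called (3.07% higher and 3.75% lower in arterial-like cells). Gja5 passed the filter of over 10% detection only through arterial-like cells (30.4% of cells, against 0.533% of the others). Its call is therefore partly set by the filter and adds no separate support beside that background. Since the subtypes were clustered in these same cells, though without the connexin genes, the p-values cover only the spread over libraries.

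Over all endothelial-like cells, Gja4 was at 64.4, 49.7, 22.1 and 72.9 CPM on the cortical surface and at 92.3 and 129 in the bone-associated libraries. The log2 difference was -1.0 ± 0.27 (adjusted p = 0.0171), below the size needed for a call, and it was -0.65 (adjusted p = 0.333) without bone-associated library 2. Arterial-like cells, where Gja4 was highest, made up 54 of 545 endothelial-like cells on the cortical surface and 151 of 595 in the bone-associated libraries. Of the 151, 97 were a sub-cluster led by S100a4, Ank3 and Pi16, in which 4 arterial markers led. Cortical surface sub-clusters of mixed leading genes, with 32 and 29 cells, were given no subtype, and 4 arterial markers led in the 29 cells. They enter neither the subtype levels nor the comparison of arterial-like with other endothelial-like cells. Pi16 and S100a4 were among the leading genes of both these 29 cells and the 97 bone-associated ones. The arterial-like class was therefore not drawn alike in the preparations. Gjc1 was at 110, 70.8, 60.9 and 55.5 on the cortical surface and at 52.7 and 45.9 in the bone-associated libraries, groups that did not overlap, with a log2 difference of 0.61 ± 0.24 that did not pass the test (adjusted p = 0.108). By subtype Gjc1 was lowest in arterial-like cells (30.5 and 17.8 on the cortical surface, 32.2 and 20.9 in the bone-associated libraries) and was seen in venous or fenestrated-like cells at 118, 59.2 and 101 on the cortical surface and at 45.5 and 37.9 in the bone-associated libraries. Barrier capillary-like cells had 126, 115 and 65.3 against 91.8 and 56.5, which overlapped. In single arterial-like cells Gja4 and Gja5 were found together in 20.4% (cortical surface) and 27.2% (bone-associated), beside products of 18.7% and 22.6%.

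**Figure D3:**
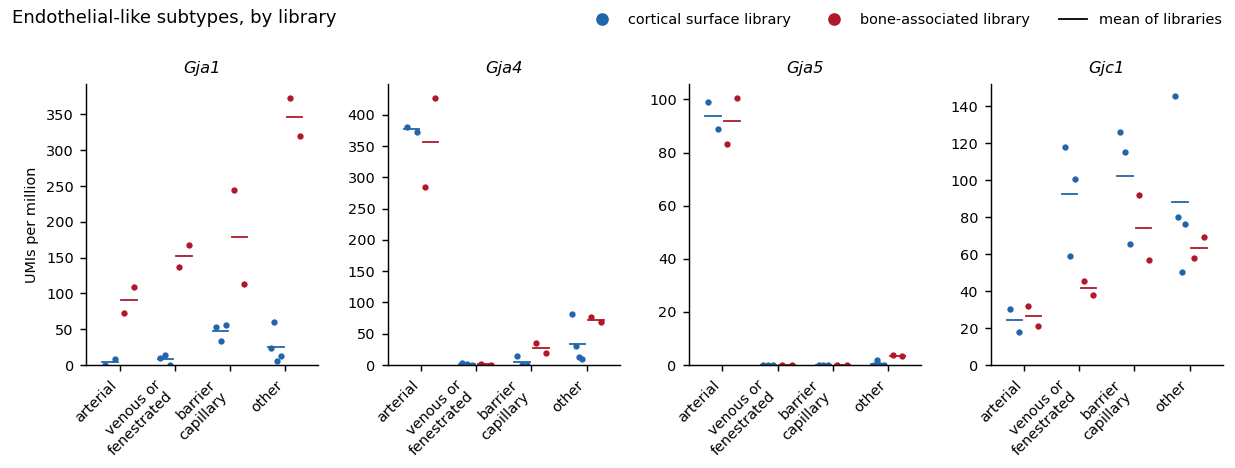
Levels of Gja1, Gja4, Gja5 and Gjc1 in CPM (vertical axes, linear, each from 0) in the 4 endothelial-like subtypes, 1 point per library with at least 10 cells, short lines at the means. Gja4 and Gja5 stand out in arterial-like cells of both preparations, and bone-associated points (red) are above cortical surface points (blue) for Gja1 in each subtype.

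The mural classes carried Gja4 and Gjc1, and no UMI of Gja5. Besides pericyte-like and vascular smooth muscle (VSMC)-like cells there were 2 further classes, named by their leading genes Colec11 and Casq2 with Olfr558. Colec11-led cells met the marker rule for pericyte-like cells and were set apart by that leading gene. On the cortical surface 5 pericyte markers led in these 258 cells, as in the 235 kept as pericyte-like. Pericyte-like levels and tests leave the Colec11-led cells out. Gja4 in pericyte-like cells was at 318, 441, 323 and 435 CPM on the cortical surface and at 319 and 429 in the bone-associated libraries, and in VSMC-like cells at 381 and 338 and at 286 and 331. The pericyte-like groups overlapped, and the log2 difference between preparations was -0.11 ± 0.28 (adjusted p = 0.899). In VSMC-like cells (2 against 2 libraries) it was 0.09 ± 0.23 (adjusted p = 0.897). Both signs turned under alternatives, so no direction is given. The Casq2/Olfr558-led cells had Gja4 levels of 596, 713 and 724 on the cortical surface (libraries 1, 2 and 4), above every other class, and of 392 and 470 in the bone-associated libraries. Colec11-led cells lay between 249 and 399 on the cortical surface and at 326 in bone-associated library 2.

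In the order of Gja4 means over classes with at least 2 libraries, cortical surface Casq2/Olfr558-led cells (677 ± 70.9 CPM, SD) stood apart. The 8 means that followed, from 431 to 308, were mural or arterial-like cells of both preparations, and each overlapped the next in range. Means farther apart in this order did not always overlap: bone-associated Casq2/Olfr558-led cells (392 and 470) were above VSMC-like cells of both preparations, with no test made.

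Gjc1, a connexin gene known from smooth muscle and pericytes, was at 670, 628, 690 and 640 CPM in cortical surface pericyte-like cells and at 381 and 334 in bone-associated ones. The groups did not overlap, but the log2 difference of 0.78 ± 0.28 did not pass the test (adjusted p = 0.113). In VSMC-like cells Gjc1 was at 200 and 176 on the cortical surface and at 144 and 133 in the bone-associated libraries, also without overlap and also not past the test (log2 difference 0.32 ± 0.22, adjusted p = 0.508). Casq2/Olfr558-led cells had 340, 371 and 330 on the cortical surface and 344 and 327 in the bone-associated libraries, which overlapped. In the order of means, cortical surface pericyte-like cells (657 ± 28.3 CPM) stood apart, the next 4 (357 to 332) overlapped, and VSMC-like cells came after them (188 ± 17.0 on the cortical surface, 138 ± 7.68 bone-associated), with the endothelial-like subtypes at or below 102. No member was called in either mural comparison between preparations, where 5.6% of 6879 genes in pericyte-like cells (1.79% higher on the cortical surface and 3.81% in the bone-associated libraries) and 5.83% of 8377 in VSMC-like cells (1.92% and 3.9%) were. By edgeR without adjustment, Gjc1 in pericyte-like cells passed 0.05 and the other 3 tests did not, and DESeq2 called 0 of them.

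Within the 4 libraries that held both classes, VSMC-like cells had less Gjc1 than pericyte-like cells. The log2 difference was -1.23 ± 0.19 (adjusted p = 1.82e-04), a difference that passed the test for p but not the size needed for a call. It was past that size under 5 alternatives (-1.3 to -1.45). Gja4 did not differ past the test, with a log2 difference of 0.19 ± 0.20 (adjusted p = 0.547). Of the 8144 genes in this fit 16.4% were called (9.23% higher and 7.21% lower in VSMC-like cells), and 0 of the 2 members by edgeR or DESeq2, while 1 of 2, Gjc1, passed 0.05 without adjustment.

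The ratio of Gjc1 to Gja4 UMIs, taken within a library, ordered the mural classes only in part. Casq2/Olfr558-led cells overlapped with VSMC-like cells on the cortical surface and with pericyte-like cells in the bone-associated libraries. On the cortical surface it was between 1.42 and 2.14 in pericyte-like, between 0.733 and 1.26 in Colec11-led, between 0.456 and 0.571 in Casq2/Olfr558-led and 0.53 and 0.52 in VSMC-like cells. In the bone-associated libraries it was 1.19 and 0.779 in pericyte-like, 0.388 in Colec11-led (1 library), 0.880 and 0.697 in Casq2/Olfr558-led and 0.503 and 0.402 in VSMC-like cells. Pericyte-like, VSMC-like and Colec11-led cells thus had a higher ratio on the cortical surface, and Casq2/Olfr558-led cells a lower one, without overlap of libraries and with no test made. For VSMC-like cells the closest libraries were at 0.523 and 0.503, and Colec11-led cells had 1 bone-associated library. In single cells Gja4 and Gjc1 were found together about as often as the product of their shares: 56.2% beside 55.6% in cortical surface pericyte-like cells, and 76.4% beside 75.3% in VSMC-like cells. In these VSMC-like cells 93.4% held Gja4, so the values could not lie far apart.

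**Figure D4:**
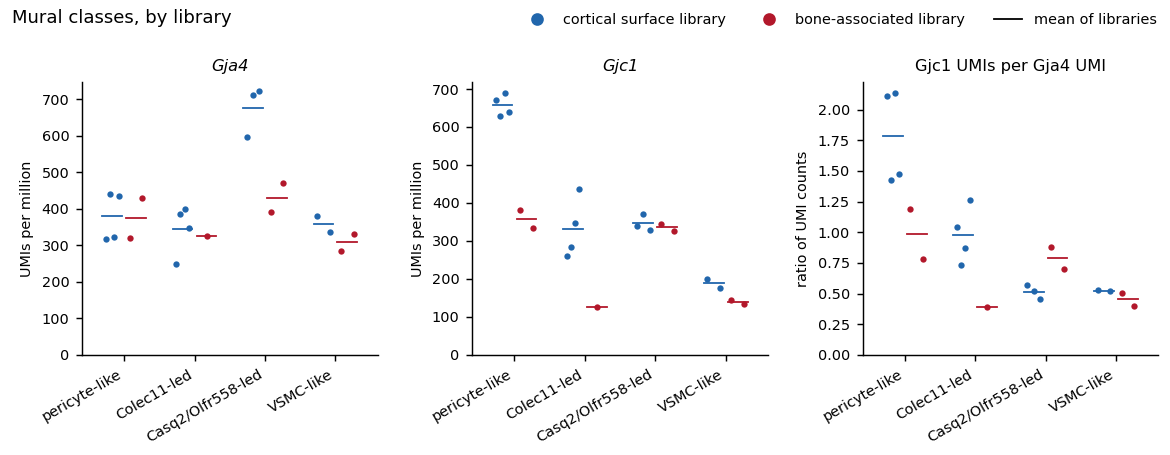
Gja4 and Gjc1 levels (CPM) and the ratio of their UMI counts (Gjc1 per Gja4) in 4 mural classes, 1 point per library with at least 10 cells, short lines at the means. The ratio is highest in cortical surface pericyte-like cells (1.42 to 2.14) and is 0.402 to 0.53 in VSMC-like cells.

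**Figure D5:**
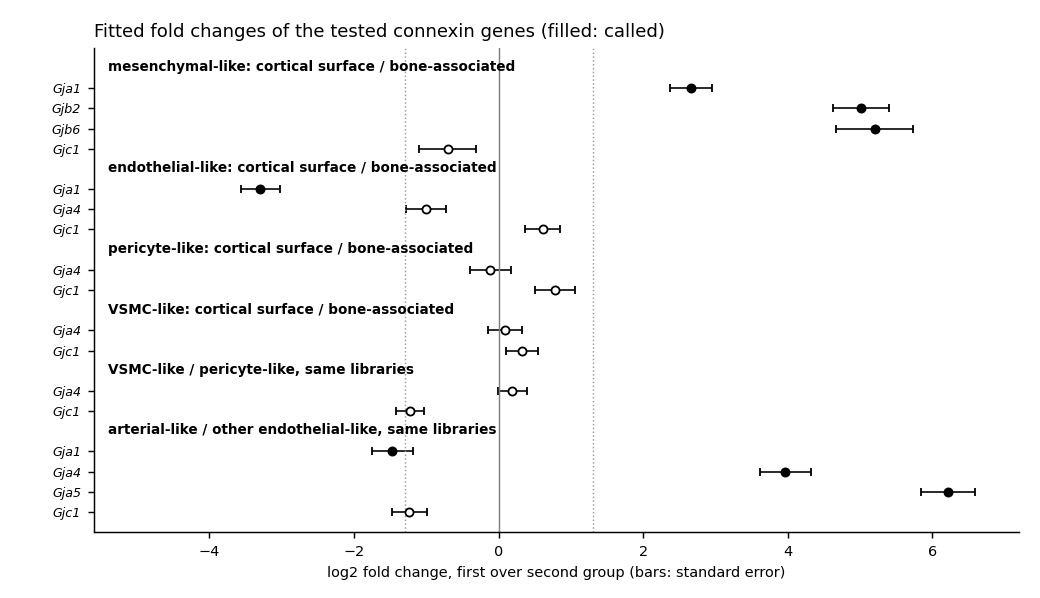
Fitted log2 difference of each tested member (horizontal axis) in the 6 comparisons, with bars of 1 standard error; filled points were called, and dotted lines mark the absolute log2 difference of 1.3. Gjb2, Gjb6 and Gja1 in mesenchymal-like cells lie to the right and Gja1 in endothelial-like cells to the left of these lines.

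Border macrophage-like cells of the cortical surface also held some Gjb2 and Gjb6. The order of the class means for Gjb2 and Gjb6 began with cortical surface mesenchymal-like cells, separate in range from all below them, then bone-associated mesenchymal-like and cortical surface border macrophage-like cells, which overlapped. Border macrophage-like cells of the cortical surface had 19.4, 62.6, 38.7 and 9.56 CPM of Gjb2 in libraries 1 to 4. These values were 1.5%, 4.76%, 2.62% and 0.707% of the mesenchymal-like level in the same library, beside 1.5%, 4.73%, 4.80% and 0.654% for the 8 mesenchymal markers summed. The level of Gja1 in these cells was 7.96%, 8.33%, 3.93% and 0.321% of the mesenchymal-like level. Gjb2 was near the marker share in libraries 1, 2 and 4 and below it in library 3. Gja1 was above the marker share in libraries 1 and 2 and below it in libraries 3 and 4. The part of mesenchymal RNA in these values was not tested. The bone-associated border macrophage-like cells had no UMI of Gjb2 or Gjb6 (0 of 114 cells, which allows a share of up to 2.63%). They had 27 UMIs of Gja1, in 11.4% of cells, at 13.1 and 18.8 CPM in libraries 1 and 2.

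Genes with the most similar pattern over 37 class means were sought among 13780 genes, by Pearson correlation of log2(CPM + 1), given as a description only. The means share libraries and depth. For Gjb6 they were Asgr1 (0.93), Clec3b (0.92), Gjb2 (0.89), Rbp4 (0.89) and Itih2 (0.88), and for Gjb2 Asgr1 (0.90), Gjb6 (0.89), Clec3b (0.89), Cemip (0.89) and Fam180a (0.87). The neighboring genes Gjb2 and Gjb6 thus were among the 5 nearest of each other. Gjc1 was nearest to Tgfb1i1 (0.96), Fermt2, Mprip, Ptprk and Tnks1bp1 (0.93), and Gja4 to Gper1 (0.91), Gm17501, Hrct1, Olfml2a and Mcam (0.88). The nearest to Gja5 were Ssu2 (0.84), Cytl1, Ptchd1, Gkn3 and Hbb-y (0.74), of which Cytl1 and Gkn3 were also used as arterial markers. Gja1 had lower values throughout, from Fmo1 (0.80) over Dchs1, Plscr2 and Sema6a to Pcdh17 (0.76).

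A list of connexin partners and regulators held 15 scaffold, adhesion, trafficking and kinase genes. In mesenchymal-like cells Tjp1, a scaffold that binds connexin tails, was called higher on the cortical surface, as 1 of 2 called among 11 tested (14.9% over all genes), with a log2 difference of 2.24 ± 0.35 (adjusted p = 3.87e-05). The median log2 difference of the list was -0.65, beside -0.02 over all genes tested, so this call and the median differ in sign. In endothelial-like cells 1 of 11 was called (6.49% over all genes), the tight junction gene Ocln (1.85 ± 0.23, higher on the cortical surface), and in pericyte-like cells 1 of 10 (5.6% over all genes), the N-cadherin gene Cdh2 (1.37 ± 0.37). In VSMC-like cells 1 of 9 was called between the preparations (5.83% over all genes). Between VSMC-like and pericyte-like cells 5 of 12 were called (16.4% over all genes): Cav1, the main protein of caveolae, was higher in VSMC-like cells (3.41 ± 0.27), and Cdh2 (-5.39 ± 0.35), Dbn1, Src and Prkca were lower. In arterial-like cells 1 of 11 was called (6.82% over all genes), Cdh2 (-4.32 ± 0.73). None of the other 14 connexin genes or the 3 pannexin genes passed the 10% detection filter in any comparison.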

How the data were processed

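Single-cell RNA was measured in 6 libraries of the 10x Genomics platform. The authors deposited raw UMI counts per gene and barcode, without normalization. The matrix headers name Cell Ranger 6.1.2, the submitters' processing notes Cell Ranger 3 and mm10; intron and strand settings are not given in the sources used here. Enzymes in the labels' protocol (papain) and in the study's methods (collagenase and dispase) differ.

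Barcodes with under 500 genes or over 10% mitochondrial UMIs were left out, and doublets were called by simulation within each library (4 to 50 removed, at 0.8% per 1000 cells). Cells of each preparation were clustered (2000 variable genes, 30 principal components, leidenalg 0.10.2, resolution 1.5) without connexin, hemoglobin and mitochondrial genes. Clusters were named from fixed markers, at least 3 of which had to lead, and were otherwise unnamed. Pericyte-like clusters with Colec11 among their 10 leading genes were set apart as Colec11-led. Unnamed clusters with Casq2 or Olfr558 among these genes became Casq2/Olfr558-led. UMIs were summed per library and class (at least 10 cells) and tested with edgeR 4.0.16 in R 4.3.3, quasi-likelihood with TMM normalization, on genes with a UMI in more than 10% of cells in one group or the other, with Benjamini-Hochberg adjustment over all genes tested; library was a block in comparisons within libraries. Shares have exact Clopper-Pearson intervals at 95%, and a count of 0 allows up to 3 counts; both cover counting error only. Nothing ties libraries to litters or days, so p-values measure only the spread between libraries. The test was checked on simulated counts with 200 changed genes. It recovered between 142 of them (VSMC-like against pericyte-like cells) and 198 (endothelial-like cells), with 3 to 22 false calls. False calls were most frequent in the comparison of arterial-like cells, with 22 beside 169 recovered.

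Named genes were the 6 members, called or highest genes of 3 lists, and the 5 most similar genes per member. The members, lists and comparisons were chosen with earlier results of these data known. The fit of the difference between classes, the fits on cortical surface libraries 1 and 2 only and those within 1 preparation were added after seeing the data. The fit of the difference between classes at first took genes tested in either class, and was limited to genes tested in both after its values were seen. Alternatives were DESeq2 1.42.0, RLE size factors, no gene filter, thinned cells (1500 UMIs), at least 1000 genes per cell, no doublet removal, libraries clustered alone, no hemoglobin genes, a replicate block and each library left out. Results for some listed genes are not reported here.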

Additional observations from a re-analysis of the deposited data

Results flagged for a closer look

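In endothelial-like cells of the cortical surface, the Gja1 level of library 2, 34.8 CPM, stood apart from the other 3 libraries (11.1 to 13.8), by a gap of 0.885 of the range. It was the 1 such value among 17 groups of 4 libraries examined, and chance marks about 1 in 20 groups. Without that library the difference between preparations in endothelial-like cells was -3.95 on the log2 scale.

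The preparation difference (cortical surface over bone-associated) of Gja1 was larger by 6.02 on the log2 scale in mesenchymal-like than in endothelial-like cells, with an SE of 0.34 and an adjusted p of 4.54e-11, and lay between 5.82 and 6.67 under all 10 alternatives. For Gjc1 it was -1.35 ± 0.42 (adjusted p = 0.0335), a result that missed an adjusted p of 0.05 without cortical surface library 1 (-0.97, adjusted p = 0.139), without cortical surface library 2 (-1.59, adjusted p = 0.0556), without bone-associated library 1 (-1.27, adjusted p = 0.142) and without bone-associated library 2 (-1.47, adjusted p = 0.195). This fit was first made on the 10128 genes tested in either class. There Gja4 also passed (4.03 ± 0.86, adjusted p = 0.0018) on only 20 mesenchymal-like UMIs, and its value was -1.21 (adjusted p = 0.74) with thinned cells, while Gjb2 and Gjb6, with 4 and 1 endothelial-like UMIs, did not pass. After these values were seen, the fit was limited to genes tested in both classes, which leaves Gja1 and Gjc1. In the first form they were 5.97 and -1.39. With thinned cells Gja1 was 5.75 in that form, below the range of the 10 alternatives.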

How the results depend on the processing

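The calls of Gjb2 (4.86 to 5.53 on the log2 scale), Gjb6 (4.6 to 7.70) and Gja1 (2.57 to 2.99) in mesenchymal-like cells held under all 16 alternatives, as did Gja1 in endothelial-like cells (-3.95 to -3.04), and Gja4 (3.38 to 5.05) and Gja5 (5.90 to 7.16) in arterial-like cells under 15. The sign of the uncalled Gja4 difference reversed in pericyte-like cells without doublet removal (0.042), with libraries clustered alone (0.10) and without bone-associated library 2 (0.40; -0.36 to 0.40 over libraries left out). It also reversed in VSMC-like cells when thinned (-0.18) or without bone-associated library 1 (-0.052; -0.052 to 0.27 over libraries left out), and between VSMC-like and pericyte-like cells when thinned (-0.22); the cause was not tested. Gjc1 passed the size for a call between VSMC-like and pericyte-like cells when thinned (-1.38), with at least 1000 genes (-1.45), without doublet removal (-1.31), without bone-associated library 1 (-1.3) and on the cortical surface alone (-1.40), and in arterial-like cells without doublet removal (-1.76), without bone-associated library 1 (-1.42) and without the library block (-1.33). Called genes numbered 1423 (mesenchymal-like), 499 (endothelial-like), 385 (pericyte-like), 488 (VSMC-like), 1339 (VSMC-like against pericyte-like) and 526 (arterial-like); with thinned cells, which leave fewer UMIs, 607, 255, 159, 160, 687 and 208. Without the gene filter they were 893 (endothelial-like), 736 (VSMC-like) and 849 (arterial-like); in pericyte-like cells 195 with DESeq2 and 605 without doublet removal. Leaving out 1 library each gave 1202 to 1426, 423 to 536, 162 to 392 (lowest without bone-associated library 2), 461 to 558, 1252 to 1355 and 328 to 524 (344 and 328 without bone-associated libraries 1 and 2). Library numbers are run numbers, not taken as pairs; a replicate block gave 1437, 463, 348 and 575 called genes in the comparisons between preparations and changed no call of a member, while comparisons within libraries gave 1219 and 335 without the block. Of the 408 levels recomputed under 4 other settings, 373 stayed within 1 SD. These were 90 of 102 without doublet removal and 92 with at least 1000 genes per cell. With libraries clustered alone they were 90, and without hemoglobin genes 101. With 2 bone-associated libraries, depth and cell numbers (15 pericyte-like cells in 1 library) limit what could be detected.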

Other observations

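Outside the named classes, a cortical surface cluster of 23 cells, in which 8 astrocyte and 6 oligodendrocyte precursor markers led, had 307 UMIs of Gja1 (1168 CPM) and 50 of Gjb6 (190), each in 12 of the 23 cells, but 2 UMIs of Gjb2. Most came from library 2, whose 9 cells held 283 of the Gja1 and 45 of the Gjb6 UMIs, while libraries 1, 3 and 4 held 3, 21 and 0 UMIs of Gja1 and 1, 3 and 1 of Gjb6. A second unnamed cluster of 14 cells, led by S100a5, Stoml3 and Tmem212, had 76 UMIs of Gja1 and none of Gjb6 or Gjb2. Library 2 gave 13 of these cells and all 76 UMIs. Bone-associated Schwann-like cells had 277 and 24.7 CPM of Gja1 in libraries 1 and 2, from 25 UMIs in 16 cells and 7 UMIs in 70 cells. Only 7 of the 86 cells (8.14%) held a Gja1 UMI, and 0 of 81 did after thinning.

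Of the other connexin genes, those of myelinating cells were seen in glia. Gjb1 had 51 of its 59 UMIs in 16 oligodendrocyte-like cells of the cortical surface, of which 87.5% held it. Gjc3 had 156 of 343 UMIs in Schwann-like cells (73.3% of 86 cells). Gja3, Gja10, Gjd3 and Gje1 had no UMI in the kept cells. The pannexin gene Panx1 had 556 UMIs, at most 20.3% of them in a single class of a single preparation.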
